A study of Mus musculus with 2 samples.

Results

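The cells described here came from the epithelium of the mandibular arch of mouse embryos at embryonic day (E) 12.0, and were chosen by their counts of 9 genes. A cell was a member when its unique molecular identifiers (UMIs, each standing for 1 captured transcript) for Pthlh, Unc5c and Runx1 summed to at least 2. It also had to hold at most 2 UMIs of Gjb2 and Gjb6 together, connexin genes of ventral and lateral anterior epithelium, and at most 2 of Ppl, Pkp1, Grhl3 and Nebl together, which mark periderm. Of 11355 cells kept at E12.0, 3026 were members, a share of 26.6% (95% exact binomial interval 25.8 to 27.5), and the whole series held 24099 kept cells.

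The study profiled 2 stages by droplet single-cell RNA sequencing with 3′ chemistry, 1 library per stage. The E12.0 library held epithelium pooled from 6 K14Cre;R26mT/mG embryos, in which Cre driven by the Keratin 14 promoter switches a membrane reporter from red to green, and the green cells were sorted after the epithelium had been peeled from the mesenchyme. Cells that had not recombined were therefore outside the sort. The E9.5 library held unsorted cells of the mandibular arches of 8 embryos, which the methods give as the same genotype. Members were compared with all 8329 other kept E12.0 cells. They were also compared with 2787 cells, here the Cxcl14 cells, that had at least 3 UMIs of Cxcl14, a chemokine gene of the aboral epithelium in front of the tooth germs, and no UMI of Pthlh, Unc5c or Runx1. With 1 library per stage no comparison between samples was possible. Every interval below is a 95% interval that covers counting error only, and no p-value is given.

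At this stage the oral surface of the mandible is divided along its oral-aboral axis into an anterior zone, a dental zone from which the incisors and molars grow, and a posterior zone. Pthlh encodes the secreted parathyroid hormone-related protein, which acts on mesenchyme through the receptor Pth1r. Unc5c encodes a netrin receptor of the axon guidance system, and Runx1 a DNA-binding factor of the RUNX family that works with the partner Cbfb and is used in many epithelia, including palate and hair follicle. The genes Slc4a4, Cntn2, Rxfp1, Isl1 and Wnt5a are called the medial list here, which was put together for this account with earlier results of these data known. In the study's text, Slc4a4 and Rxfp1 mark the anterodorsal-medial epithelium, a midline strip in front of the incisor. Rxfp1 marks posterior epithelium as well, Isl1 the medial mandible at large, and Wnt5a is one of the WNT ligands of the whole anterior epithelium, so the list does not mark that strip alone. For this account the rule gene Unc5c had been counted with the same markers and was left out of the list. Higher levels of the list in members are therefore not independent of the rule.

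The membership rule was in practice carried by Runx1. A Runx1 UMI was present in 2861 members (94.5%), an Unc5c UMI in 1314 (43.4%) and a Pthlh UMI in 669 (22.1%), and Runx1 supplied 73.5% of the 11303 UMIs that the members held of the 3 genes. A member held between 2 and 27 of these UMIs, with a median of 3. The highest count of a single gene in a member was 23 for Runx1, 7 for Unc5c and 5 for Pthlh. Had the rule ignored Pthlh, 2821 of the members (93.2%) would still have met it, and without Runx1 759 (25.1%) would. These values follow from the selection and are given only to describe it. In GRCm38 coordinates (GENCODE vM21), Runx1 lies on the minus strand of chr16:92601466-92826149, Unc5c on the plus strand of chr3:141465216-141834924 and Pthlh on the minus strand of chr6:147252101-147264183.

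Sorted by which of the 3 genes had a UMI, 1303 members (43.1%) had Runx1 only and 959 (31.7%) had Unc5c and Runx1. Pthlh and Runx1 were together in 379 members (12.5%), and all 3 genes in 220 (7.27%). The remaining members had Unc5c only (95 cells), Pthlh and Unc5c (40) or Pthlh only (30). To compare how often 2 genes met in a cell at equal depth, every kept cell was thinned to 4100 UMIs, which left 10331 cells. Unc5c and Runx1 were then found together in 670 cells, 1.77 times (interval 1.64 to 1.91) the number given by the product of their separate frequencies. The figure was 1.69 (1.40 to 2.03) for Pthlh with Unc5c and 1.53 (1.37 to 1.70) for Pthlh with Runx1. The 3 genes were put in 1 rule with earlier results of these data known, so these ratios describe the rule genes and support nothing about the set.

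**Figure D1:**
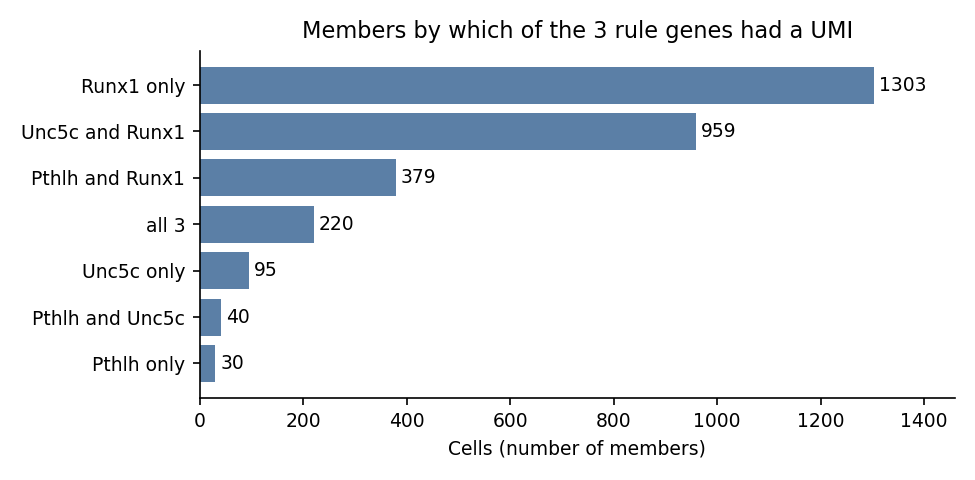
Number of members (x axis, cells) by which of Pthlh, Unc5c and Runx1 had at least 1 UMI in the cell (y axis). The 2 largest bars, Runx1 only with 1303 cells and Unc5c with Runx1 with 959, hold most members, while the 4 bars with Pthlh hold 669 together.

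Members were epithelial cells. Epcam, an adhesion molecule of epithelia, had a UMI in 87.3% of them at 446 counts per 1000000 UMIs (CPM), against 419 CPM in the other cells. Trp63, a factor of stratified epithelium, stood at 262 CPM (interval 256 to 269) in members and 249 CPM (245 to 253) in the others. Krt5, a basal keratin, was at 385 CPM (377 to 394) against 548 CPM (542 to 554). The 6 mesenchymal markers measured (Prrx1, Twist1, Pdgfra, Col1a1, Col1a2 and Col3a1) summed to 8.26 CPM in members and 9.95 CPM in the others, and Col1a2 was the most abundant of them. The 3 endothelial markers, of which Cdh5 and Kdr were at 0, summed to 1.05 and 1.31 CPM, and 3 globin genes were at 0 in both groups. Of the neural crest markers Sox10 and Foxd3, Sox10 stood at 0.830 CPM in members and 1.62 CPM in the others, with Foxd3 at 0. Immune (Ptprc, Csf1r) and muscle (Myod1, Myf5, Myog) markers summed to at most 0.262 CPM in either group, with Myf5 and Myog at 0. Among 3 neuronal markers, Tubb3, a tubulin of neurons, stood at 8.56 CPM (7.41 to 9.85) in members and 2.54 CPM (2.14 to 3.001) in the others, while Elavl3 and Stmn2 were below 1 CPM in both.

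Members were also deeper cells. They had a median of 6838 UMIs per cell and the other cells 6219, and the share of members climbed from 16% in the lowest of 10 equal classes of cells by UMI count to 41.8% in the highest. The rule asks for a minimum of raw UMIs, which a deeper cell meets more readily, so this difference in depth is not a result about the set. Doublets were called in 8.96% of members and 4.68% of the other cells. How far the rule also favored doublets was not tested. Without the called doublets, 149 genes were higher and 94 lower by the criterion given below, of which 114 and 80 were shared with the comparison of all cells.

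Compared with all other kept cells, members had more transcripts of each gene of the medial list. Isl1, a LIM homeobox factor of the midline oral epithelium, was at 175 CPM (169 to 180) in members and 80.0 CPM (77.6 to 82.4) in the rest, which is a log2 ratio of 1.13 (1.07 to 1.19). Slc4a4, a sodium bicarbonate cotransporter, was at 78.0 CPM (74.4 to 81.7) against 39.4 CPM (37.7 to 41.1), and Cntn2, a contactin of axon guidance, at 26.4 CPM (24.3 to 28.5) against 12.3 CPM (11.4 to 13.3). For Rxfp1, the relaxin receptor, the levels were 72.7 CPM (69.3 to 76.3) and 38.0 CPM (36.4 to 39.7). Wnt5a, a ligand of non-canonical WNT signalling, stood at 139 CPM (134 to 143) and 85.4 CPM (83.0 to 87.9). Crabp1, a cytoplasmic retinoic acid binding protein, was at 74.5 CPM (71.1 to 78.2) against 44.3 CPM (42.6 to 46.1), a log2 ratio of 0.75 (0.66 to 0.84). Both Crabp1 and Slc4a4 had been named as markers with the set.

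In single members these transcripts were often not captured. The share of cells with a UMI depended on depth, so a cell without one is not shown to lack the transcript. An Isl1 UMI was found in 61.8% of members and 29.6% of the other cells, which became 46.4% and 22.5% in cells thinned to equal depth. The thinned shares were 26.0% and 13.8% for Slc4a4, 37.1% and 25.2% for Wnt5a, 22.9% and 14.4% for Crabp1, 19.4% and 11.4% for Rxfp1, and 10.2% and 4.73% for Cntn2. The mesenchymal factor Prrx1 had a UMI in 0.0698% and 0.0268% of thinned cells. Mesenchyme had been peeled and sorted away, so this does not give the background of transcripts shed by epithelial cells, which was not measured. When the rule was applied to the thinned counts, 9.43% (8.57 to 10.4) of the 4241 cells with none of Isl1, Slc4a4, Cntn2, Rxfp1 and Wnt5a were members. This share was 17.9% of cells with 1 of the 5 markers, 27.9% with 2, 37.8% with 3 and 44.2% (36.0 to 52.6) with 4.

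Across the transcriptome the difference was modest. A gene counted as higher or lower when its CPM, with 5 CPM added to both groups, differed at least 1.3-fold and at least 15% of cells in the higher group had a UMI of it. Among 6453 genes with a UMI in at least 15% of either group, the rule genes left out, 118 (1.83%) were higher in members and 83 (1.29%) lower. All 5 medial-list genes were among the 118, with a median log2 fold of 0.85 beside 0.007 over all genes tested. At least a 2-fold difference was reached by 4 genes upward and 7 downward.

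The leading genes outside the rule were of several regions. Tgfb2, which encodes a transforming growth factor-β ligand, led with 87.0 CPM (83.3 to 91.0) in members and 29.6 CPM (28.2 to 31.1) in the rest, which is a log2 ratio of 1.56 (1.46 to 1.65). It was unevenly spread, with a UMI in 16.2% of members and up to 26 UMIs in a single cell. Barx1, a homeobox factor of molar and posterior oral territory, followed with 130 CPM (126 to 135) against 49.5 CPM (47.6 to 51.4). After them came Atxn1 (50.0 against 19.4 CPM), Isl1, Tshz2 (113 against 54.7 CPM), the sodium-potassium-chloride cotransporter Slc12a2 (764 against 390 CPM) and the desmosomal cadherin Dsc3 (145 against 73.0 CPM). Slc4a4, Tlx1, Foxo1, Cntn2, Rxfp1, Fst, Nkx2-3 and Tgfb1 completed the 15 largest folds. Tgfb1, the other ligand of this family on the list, stood at 26.4 CPM (24.3 to 28.5) against 13.4 CPM (12.5 to 14.5).

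Of 5 factors listed for the medial mandible and oral epithelium and tested, 4 were higher in members and none lower. Isl1 is also in the medial list, and Nkx2-3 is a factor of the oral epithelium rather than of its medial part. Msx1 is named in the study for the anterior epithelium and not for its medial part, and was lower in members than in the Cxcl14 cells within the same limits. Tlx1, a homeobox gene of the midline mandible, was at 84.1 CPM (80.4 to 88.0) in members and 43.2 CPM (41.5 to 45.0) in the others, and Nkx2-3, a homeobox factor, at 152 CPM (147 to 157) and 86.7 CPM (84.3 to 89.2). Msx1, a target of BMP signalling, was at 178 CPM (173 to 184) and 133 CPM (130 to 136). Fgf8, a ligand of the lateral mandible, was below the detection criterion, at 20.8 CPM (19.0 to 22.8) in members and 26.6 CPM (25.2 to 28.0) in the others. None of 4 markers of the lateral anterior epithelium was higher. Meis1 was at 155 against 124 CPM, Meis2 at 829 against 853 CPM and Krt15 at 279 against 314 CPM, all short of the 1.3-fold criterion, and Col12a1, a fibril-associated collagen, was lower at 43.5 against 100.5 CPM. The limit on Gjb2, a gene that also maps to lateral anterior epithelium, held for members only. Against other cells within the same limits on connexin and periderm genes, Isl1, Tlx1, Nkx2-3, Msx1 and Msx2 were higher, no lateral marker was higher and Col12a1 was lower.

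Of 10 markers of the anterior zone as a whole that were tested, 9 were lower in members and none higher, with a median log2 fold of -0.71. Robo2, a Slit receptor, had the smallest fold of any gene tested, at 27.3 CPM (25.2 to 29.5) in members and 105 CPM (103 to 108) in the rest, which is a log2 ratio of -1.95 (-2.07 to -1.83). Tfap2b, an AP-2 factor of the aboral epithelium, followed with 182 CPM (176 to 187) against 522 CPM (516 to 528). Cxcl14 was at 525 CPM (516 to 535) against 1003 CPM (995 to 1012), and Lmo1 at 80.8 CPM (77.2 to 84.6) against 159 CPM (156 to 163). Slc2a3, Fzd10, Nbl1, Limch1, Col12a1 and Irx3 were the other genes with the 10 smallest folds. Of 5 ventral markers tested, all were lower, among them the WNT receptor Fzd10 (27.8 against 70.2 CPM) and Irx3 (36.8 against 72.8 CPM). Members were held to the limits on connexin and periderm genes and the other cells were not. Against other cells within both limits, 41 genes in place of 83 were lower, with 8 of the 10 anterior and 3 of the 5 ventral markers among them.

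**Figure D2:**
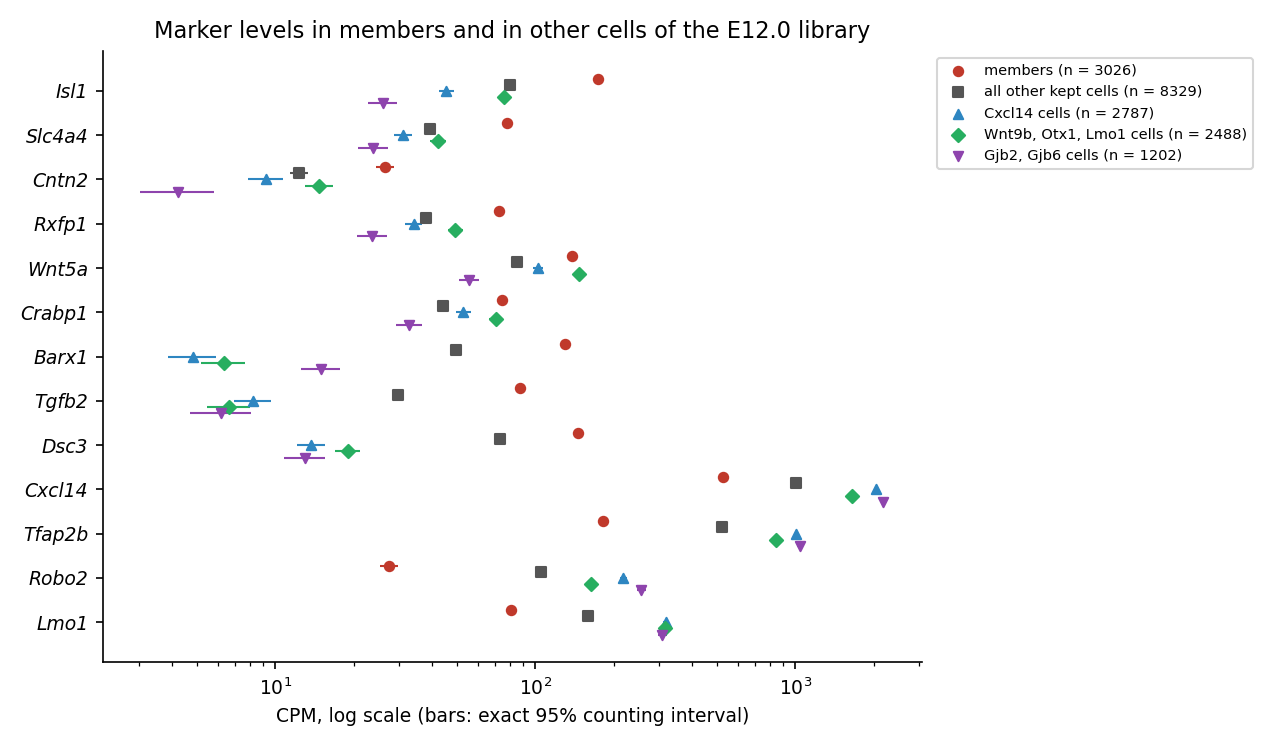
Level in CPM on a log axis (x) of 13 marker genes (y) in members and in 4 other sets of E12.0 cells, with exact 95% counting intervals as bars. For Isl1, Slc4a4, Cntn2 and Rxfp1 the members (175, 78.0, 26.4 and 72.7 CPM) lie to the right of all 4 other sets, while for Cxcl14, Tfap2b, Robo2 and Lmo1 they lie to the left of all of them, which for Cxcl14 and Lmo1 was in part set by the choice of the Cxcl14 cells and of the Wnt9b, Otx1 and Lmo1 cells.

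Markers of other regions were also found in the set. Dental markers were higher in 4 of 6 tested, including the activin antagonist Fst (88.1 against 48.9 CPM) and Tbx1 (28.0 against 16.4 CPM), while Irx1 was nearly level at 39.7 against 36.0 CPM. Shh, the ligand of the initiation knot, the signalling center of the tooth germ, had a UMI in 211 members. These were 45.2% of the 467 kept cells with Shh and 6.97% of members. Its level was 41.2 CPM (38.6 to 43.9) against 10.7 CPM (9.85 to 11.6), and 11 markers of the knot summed to 146 and 59.6 CPM, none of them in enough cells to be tested. The dental calls changed with the cells compared. With called doublets left out of both groups Dsc3 and Fst remained past the criterion, and against cells within the same limits Dsc3, Fst and Tbx1 did, as did Dsc3 and Fst with the other cells weighted by zone class. Dmrt2 and Rtl3, markers of the posterior epithelium, were at 18.4 against 9.83 CPM and 12.5 against 8.10 CPM. The 2 tongue markers listed summed to 10.2 against 7.94 CPM. Foxa1, the more abundant, was at 8.96 against 6.25 CPM, whereas the other was lower in members. Neither was in enough cells to be tested. Without every cell that had a Shh UMI, 129 genes were higher and 86 lower, of which 110 and 79 were shared with the full comparison.

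Of the pathways attached to the 3 rule genes, few other components stood out. In the PTHrP pathway none of 3 tested genes met the criterion, and the receptor Pth1r was at 0.350 CPM (0.151 to 0.689) in members. Among netrin pathway genes Unc5b was higher (62.9 against 42.2 CPM), and the ligand Ntn1 was at 2.23 CPM (1.66 to 2.93) in members and 4.27 CPM (3.74 to 4.85) in the others. Among RUNX factors and partners Runx2 was higher, at 37.3 CPM (34.9 to 39.9) against 23.7 CPM (22.5 to 25.1), while the partner Cbfb was at 74.3 against 70.2 CPM and Runx3 was below 1 CPM in both groups. Of 8 retinoic acid genes tested, Crabp1 and Crabp2 were higher (Crabp2 at 51.0 against 36.3 CPM), and Crabp2 no longer was against cells within the same limits. Slc4a4 was the only gene of 4 tested for bicarbonate transport that met the criterion, with Slc4a2 at 38.0 against 37.4 CPM.

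In the signalling and regional lists, many calls depended on the cells compared. Each was checked against other cells within the same limits and against other cells weighted to the members' mix of cells with anterior, dental and posterior zone markers. Past the criterion in all 3 comparisons, Wnt5a, Sostdc1, Ptch1, Gli1, Bambi, Msx1, Spry2, Robo1 and Dlx1 were higher, and Boc, Htra1, Robo2, Sema3a, Tfap2b, Irx3 and Irx5 lower. Sostdc1, a secreted inhibitor of both WNT and BMP, was at 456 CPM (447 to 465) against 304 CPM (300 to 309). The hedgehog response genes Ptch1 and Gli1 were at 157.5 against 98.7 CPM and 40.1 against 26.5 CPM. Their difference was largest in cells with anterior markers only, with log2 folds of 1.26 for Ptch1 and 1.05 for Gli1, was 0.19 and 0.12 in cells with the dental marker only, and turned in cells with posterior markers, at -0.66 and -0.52. Bambi, a pseudoreceptor of BMP signalling, was at 108.5 against 64.2 CPM, and the protease Htra1 at 16.1 against 33.1 CPM. Robo1, a Slit receptor, was at 54.8 against 34.8 CPM, the guidance ligand Sema3a at 126 against 218 CPM and the homeobox factor Dlx1 at 109 against 62.7 CPM.

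Other calls of these lists did not hold throughout. The WNT ligands Wnt3 (62.2 against 103 CPM), Wnt7b (169 against 235 CPM) and Wnt9b (49.5 against 82.1 CPM) were lower than in all other cells and within the same limits, but none of them was past the criterion with the zone weighting. The WNT feedback genes Axin2, Znrf3 and Kremen2 were lower than in all other cells only, and past the criterion in neither of the other 2 comparisons. The same was true of the hedgehog coreceptor Cdon, the guidance receptors Ephb2 and Plxna2 and the AP-2 gene Tfap2c, all lower, and of Etv5 and the homeobox factor Pitx1 (385 against 269 CPM), both higher. Fgf9 and Ephb1 were higher except within the same limits. The BMP antagonist Nbl1 (9.96 against 28.6 CPM) was lower than in all other cells but was in too few of the compared cells to meet the criterion in the other 2 comparisons, where its fold stayed past 1.3. Epha7 (78.7 against 47.7 CPM) was higher, and Gas1 (76.5 against 119 CPM) and Tfap2a lower, except with the zone weighting.

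The difference in mitosis genes was smaller at matched depth. Of 15 genes of G2 and mitosis, 7 were higher in members than in all other cells, among them Ube2c (201 against 136 CPM) and Cenpf (480 against 333 CPM), and none of 14 S phase genes met the criterion. When the other cells were weighted to the members' distribution of UMIs per cell, 0 of the 15 remained past the criterion. Their median log2 fold went from 0.36 to 0.17, with Ube2c from 0.54 to 0.24. All 5 medial-list genes, 4 medial and oral factors and 9 anterior zone markers did remain past it. Of all 6532 genes tested at matched depth, 96 were higher and 77 lower. Without depth weighting, 5 of the 15 mitosis genes were higher within the same limits, 4 with the zone weighting and 10 without called doublets. Against the Cxcl14 cells 14 of the 15 were higher, and 8 (Cdc20, Cdk1, Cenpe, Cenpf, Plk1, Top2a, Tpx2 and Ube2c) still were at matched depth. There, 319 of all 6625 genes tested were higher. Cdkn1a, an inhibitor of cyclin-dependent kinases found in the knot, was higher (66.9 against 37.7 CPM) and Cdkn1c lower (309 against 453 CPM), the latter except with the zone weighting. Within each of the 10 depth classes Isl1, Slc4a4, Cntn2, Rxfp1, Wnt5a, Crabp1 and Barx1 were higher in members, with log2 folds of 0.73 to 1.34 for Isl1 and 0.53 to 1.02 for Crabp1, and Robo2 and Tfap2b were lower. Tgfb2 was higher in 9 of the 10 and lower in the shallowest.

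The Cxcl14 cells gave the comparison with anterior and ventral epithelium that lacked all 3 rule genes. Of 6539 genes tested, 399 (6.10%) were higher in members and 296 (4.53%) lower, where Cxcl14 itself was among the lower genes by the choice of the comparison cells. Isl1 differed from 45.5 CPM (42.4 to 48.6) in the Cxcl14 cells, a log2 ratio of 1.94, and Slc4a4 from 31.0 CPM, a log2 ratio of 1.33. Crabp1 and Wnt5a, at 52.9 and 103 CPM in the Cxcl14 cells, were nearer to the members, with log2 ratios of 0.49 and 0.43. In the 3254 cells with at most 5% mitochondrial UMIs, of which 1129 were members, these 2 genes were instead lower in members, by log2 folds of -0.35 and -0.25. Barx1 had the largest fold, at 130 CPM in members and 4.80 CPM in the Cxcl14 cells. Also among the 15 largest folds were Dsc3 (145 against 13.8 CPM), the progenitor factor Sox2 (81.8 against 7.07 CPM), Tgfb2 (87.0 against 8.21 CPM), Foxe1 (51.4 against 3.29 CPM), Meg3, Epha7, Fst, Tshz2, Krt8, Irx1, Pitx1, Atxn1 and Nfia. All 6 dental markers and 3 of 5 medial and oral factors tested were higher in members, and all 11 anterior and all 8 ventral markers tested were lower. The Cxcl14 cells were chosen by a gene of the aboral epithelium. The directions of the anterior, ventral and dental markers against them therefore follow in part from that choice. Of the 4 lateral anterior markers, Meis1 was higher (log2 fold 0.72) and Col12a1 lower. The Cxcl14 cells were not held to the limits on connexin and periderm genes, which summed to 47.9 CPM in members and 349 CPM in them. Against the Cxcl14 cells within the same limits, 372 genes were higher and 245 lower, all 11 anterior and 7 ventral markers were lower, all 6 dental markers were higher, and Msx1 and Msx2 were lower. Isl1, Slc4a4, Cntn2 and Rxfp1 of the medial list were still higher, while Wnt5a (log2 fold 0.10) and Crabp1 (0.20) were not past the criterion. The smallest folds belonged to Robo2 (27.3 against 218 CPM), C130021I20Rik, Tfap2b, Skap2, Lmx1b, the proteoglycan Dcn, Rhbdl3, Irx4, Fzd10 and Slc2a3. Lmx1b, a LIM homeobox gene, was at 4.11 CPM (3.32 to 5.03) in members and 38.5 CPM in the Cxcl14 cells.

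Restricting this comparison to the members that themselves had at least 3 Cxcl14 UMIs made both sides Cxcl14-positive. There were 1124 such members, 37.1% of the set and 22% of all 5107 cells with that much Cxcl14. All 5 medial-list genes remained higher, 298 genes in all were higher and 197 lower, and all 8 ventral markers stayed lower. Of the dental markers 2 (Dsc3 and Fst) were higher in place of 6, with Irx1 and Tbx1 among the genes no longer past the criterion. Otx1, an anterior factor lower in members as a whole than in the Cxcl14 cells, was instead higher by 0.29 on the log2 scale.

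The name given to the set, anterior-dorsal epithelium, was checked by position. Thinned cells were classed by markers of the 3 zones, as A with at least 2 UMIs of Cxcl14 and Tfap2b, D with at least 1 of Irx1, and P with at least 1 of Dmrt2 and Rtl3. Of 2865 members 1097 (38.3%, interval 36.5 to 40.1) were A only, 52 (1.82%, 1.36 to 2.37) were A and D, 273 (9.53%, 8.48 to 10.7) were D only, 260 (9.08%, 8.05 to 10.2) were P and 1183 (41.3%, 39.5 to 43.1) had none of these marks. The other 7466 cells were A only in 54.4% (53.3 to 55.5), A and D in 1.18% (0.946 to 1.45), D only in 8.21% (7.60 to 8.86), P in 5.67% and unmarked in 30.6%. Members made up 21.3% of the 5158 cells with A marks only, 30.8% of the 886 with D marks only, 37.1% of the 140 with both, 38.1% of the 683 in class P and 34.2% of the 3464 unmarked cells. The set was thus spread over all 5 classes, and it is named here by its rule genes. Cells with few zone marker UMIs, which could include cells at a border between zones, are not placed by these classes, and 41.3% of members were of this kind. Doublets were called in 12.9% of members and 6.60% of other cells with A marks only, and in 30.8% of the members and 30.7% of the other cells with both A and D marks. The shares were 4.76% and 1.63% with D marks only, 9.62% and 3.31% in class P, and 6.34% and 2.72% in unmarked cells. Without called doublets all 5 medial-list genes were still higher in members than in the other cells.

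In the A only, D only and unmarked classes, the intervals of members lay above those of the other cells for all 5 medial-list genes and for Crabp1. Of all 6453 genes tested this was so of 11.3% in the A only class, 1.95% in D only and 6.69% in the unmarked class, and of 0.992% in all 3. Among A only cells, Isl1 was at 189 CPM (180 to 198.5) in members and 58.2 CPM (55.4 to 61.0) in the others, Slc4a4 at 90.6 CPM (84.4 to 97.2) and 37.1 CPM (34.9 to 39.4), and Wnt5a at 237 CPM (227 to 247.5) and 117.5 CPM (114 to 121.5). Crabp1 was at 118 CPM (110.5 to 125) in these members, the highest of the classes, and 58.1 CPM (55.4 to 61.0) in the others. Among D only cells Isl1 was at 135 CPM (120 to 151) in members and 80.5 CPM (72.3 to 89.3) in the others. In the small class with both A and D marks, where 1.21% of all genes had members' intervals above, they overlapped for Slc4a4 (72.3 and 49.5 CPM), Crabp1, Cntn2 and Rxfp1. In class P, where 1.97% of all genes had members' intervals above, they overlapped for Crabp1 (15.1 and 14.2 CPM), Wnt5a (42.9 and 43.0 CPM), Slc4a4 (62.5 and 47.9 CPM), Cntn2 and Rxfp1, and Isl1 was at 241 CPM (220 to 263) and 199 CPM (183 to 216). Barx1 was highest in class P, at 383.5 CPM in members and 286 CPM in the others. In the A only class it was at 24.1 and 8.58 CPM.

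Of the 118 genes higher in members, 75 (63.6%) were on the same side in all 5 classes and 7 were past 1.3-fold in all 5. Of the 83 lower genes, 40 (48.2%) kept their side and 3 were past 1.3-fold in all 5. Of all 6453 genes tested, 7.62% were higher and 6.15% lower in all 5 classes, and 0.139% and 0.0465% were past 1.3-fold in all 5. Both sets were chosen in these same cells, so the shares only describe them. The 7 higher genes were Tgfb2, Tshz2, Foxo1, Fam198b, Msx1, Unc5b and Atxn1. When the other cells were weighted to the members' zone classes, 83 genes were higher and 38 lower, of which 73 and 36 were shared with the full comparison, with all 5 medial-list genes still higher and 5 of the 10 anterior markers (Cxcl14, Lmo1, Npr3, Robo2 and Tfap2b) still lower.

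**Figure D3:**
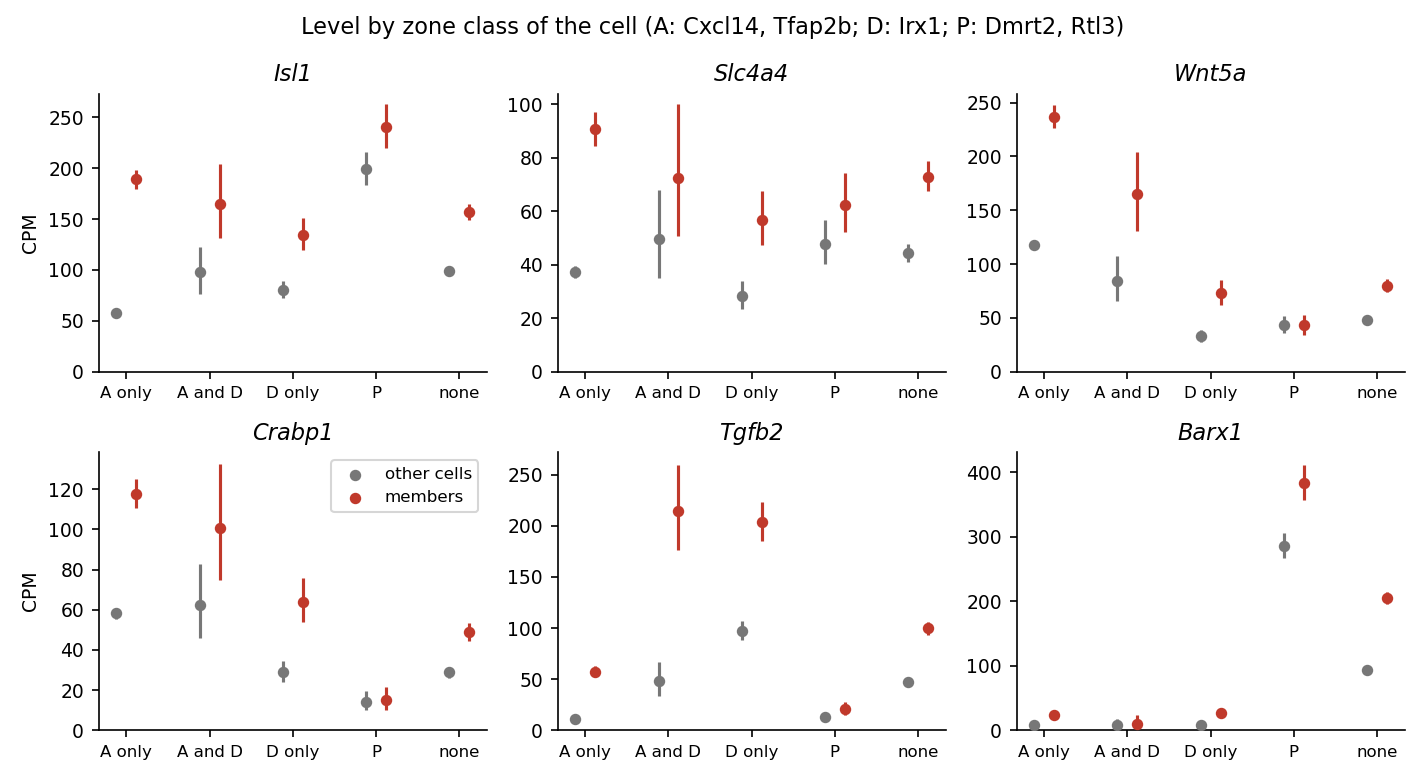
Level in CPM (y axes, from 0) of 6 genes in members (red) and other cells (grey) by zone class (x axes), with exact 95% counting intervals as bars. The level of Isl1 is higher in members in every class, most in A only, while Crabp1 and Wnt5a are level between members and other cells in class P, where Barx1 is highest.

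Members with different rule genes were not alike. The 379 members with Pthlh and Runx1 had the profile nearest to anterior epithelium, with Cxcl14 at 912 CPM (877 to 948), Crabp1 at 110 CPM (97.6 to 122) and Wnt5a at 212 CPM, and little Barx1, at 26.2 CPM (20.6 to 32.9). The 959 with Unc5c and Runx1 had Cxcl14 at 334 CPM (321 to 347) and Crabp1 at 67.9 CPM (62.1 to 74.1), but Barx1 at 187 CPM (177 to 197), Tgfb2 at 150 CPM (141 to 159) and Shh at 84.3 CPM (77.8 to 91.2). In the 1303 with Runx1 only, Barx1 was at 140 CPM (132 to 148) and Tgfb2 at 34.5 CPM (30.8 to 38.4). Dmrt2 was at 2.84 CPM (1.22 to 5.59) with Pthlh and Runx1 and at 30.8 CPM (26.97 to 35.1) with Unc5c and Runx1.

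The 220 members with all 3 genes had the highest levels of several of these genes among the 4 largest combinations. Crabp1 was at 151 CPM (134 to 170), Slc4a4 at 114 CPM, Isl1 at 231 CPM and Slc12a2 at 1221 CPM (1171 to 1272) in them. They also had the deepest median of these combinations, 7623 UMIs per cell, and doublets were called in 10.9% of them. In thinned cells, Barx1 met Pthlh in 20 cells, 0.233 times (0.142 to 0.359) the number given by their separate frequencies, but met Unc5c 1.94 times (1.73 to 2.17) and Runx1 1.45 times (1.35 to 1.56). Shh met Unc5c 3.31 times (2.76 to 3.94) and Pthlh 1.08 times (0.684 to 1.62). Crabp1 met Pthlh 1.89 times (1.64 to 2.17), Unc5c 1.41 times and Runx1 1.28 times. Cxcl14 met Pthlh more often than their frequencies gave (1.25 times, 1.14 to 1.37) and Unc5c less often (0.774 times, 0.707 to 0.845).

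**Figure D4:**
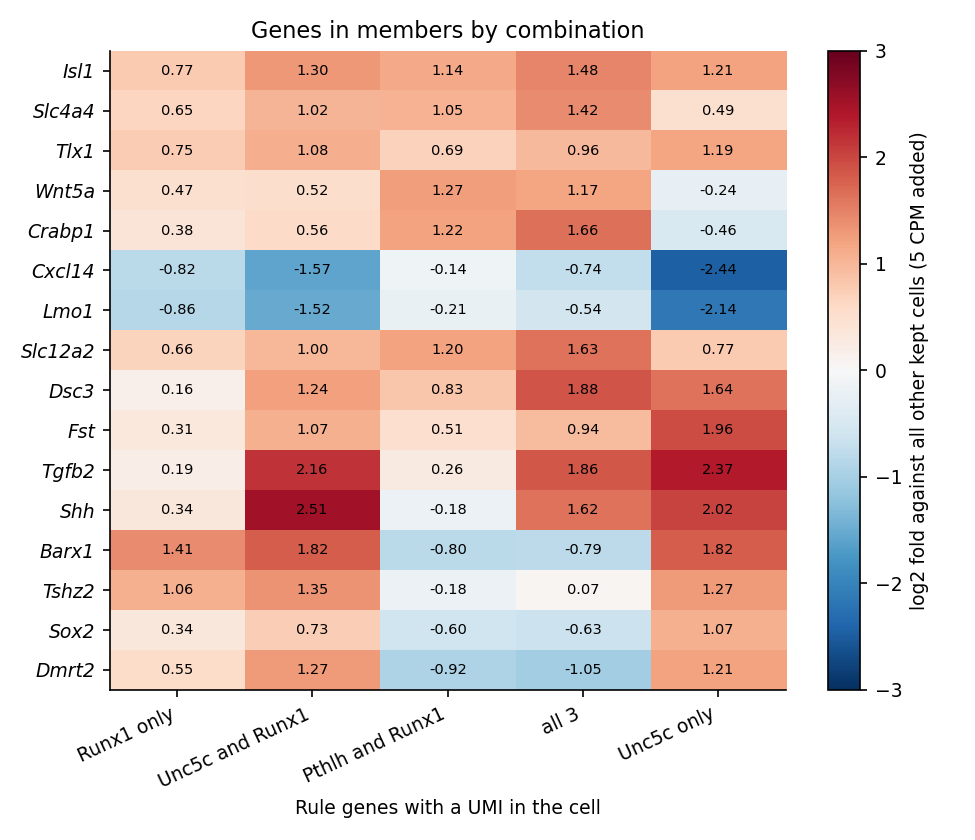
Log2 fold against all other kept cells, with 5 CPM added (color and printed value), of 16 genes (rows) in members grouped by which rule genes had a UMI (columns). Isl1, Slc4a4 and Slc12a2 are above 0 in every column, while Barx1, Sox2 and Dmrt2 are below 0 in both columns with Pthlh and above 0 in those without it.

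The levels also moved with the amount of rule-gene UMIs. Cells within both limits were grouped by their summed Pthlh, Unc5c and Runx1 UMIs, from 4418 cells with 0 to 325 with 7 or more. Isl1 was at 74.5 CPM (71.3 to 77.8) with 0, 117 CPM (112 to 123) with 1, 143 CPM (135 to 152) with 2 and 219 CPM (202 to 236) with 7 or more. Slc12a2 went from 384 to 1011 CPM, Dsc3 from 60.9 to 282 CPM and Crabp1 from 41.1 to 116 CPM between the same ends. Tgfb2 went from 29.2 CPM (27.2 to 31.3) to 206 CPM (190 to 223). Tfap2b went from 485 to 119 CPM and Robo2 from 88.4 to 17.5 CPM. Some genes peaked in between: Rxfp1 was at 37.1 CPM with 0, 94.6 CPM with 4 and 56.1 CPM with 7 or more, and Barx1 at 47.5, 158 and 102 CPM. Median depth moved with the sum, from 5944 UMIs per cell with 0 to 7909 with 7 or more.

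The step at the edge of the rule differed between genes. The 1186 members with a sum of 2, just inside, had Crabp1 at 59.2 CPM (54.1 to 64.6), as did the 2229 cells with a sum of 1, just outside (55.4 to 63.2). Slc4a4 was at 62.2 CPM (57.0 to 67.8) inside and 49.4 CPM (45.9 to 53.1) outside, while Robo2 was at 35.7 CPM (31.8 to 40.0) inside and 62.1 CPM (58.2 to 66.2) outside. At the connexin limit, Cxcl14 was at 1294 CPM in the 68 cells just inside, with 2 UMIs of Gjb2 and Gjb6, and at 1454 CPM in the 35 just outside, with 3. At the periderm limit, Dsc3 was at 240 CPM in the 122 cells just inside and 445 CPM in the 48 just outside.

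**Figure D5:**
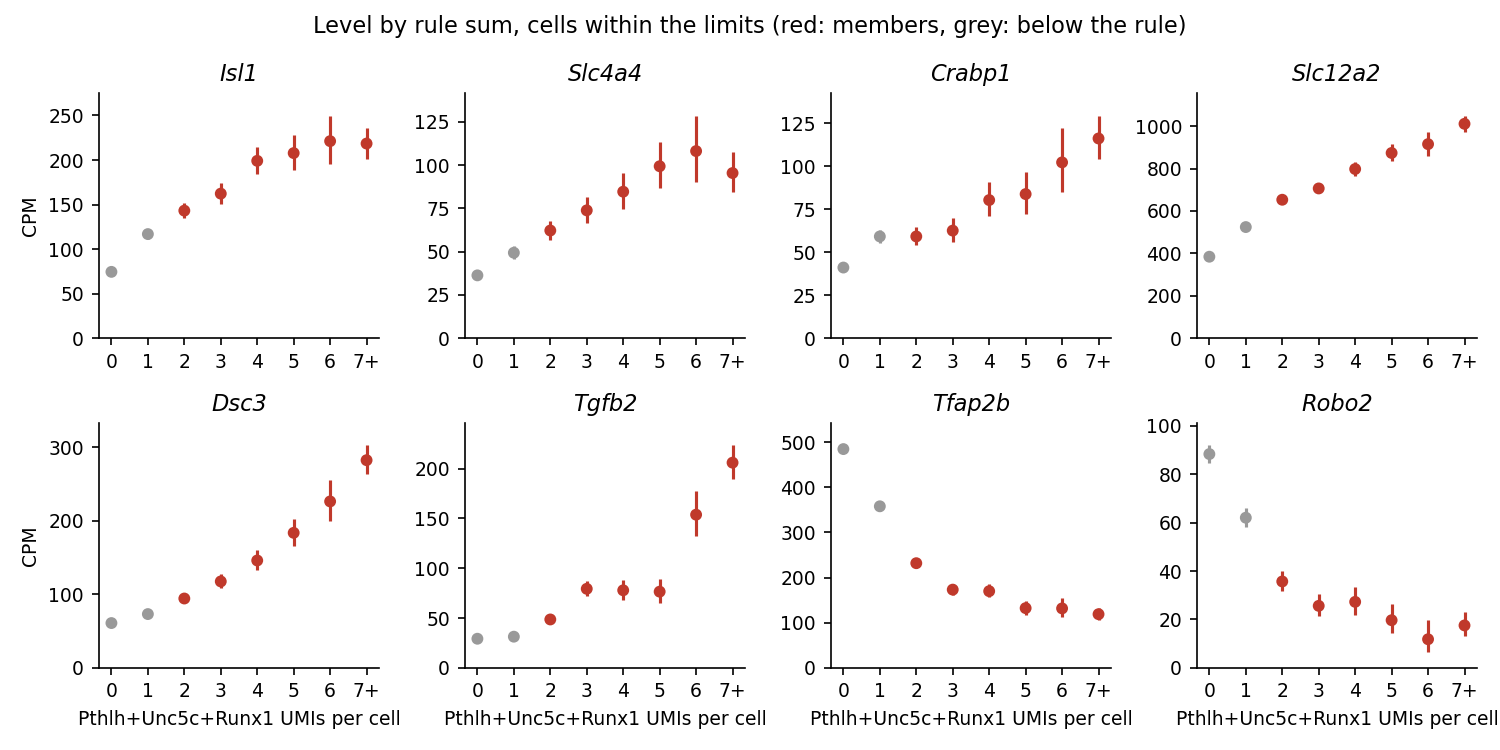
Level in CPM (y axes, from 0) of 8 genes by the summed UMIs of Pthlh, Unc5c and Runx1 in a cell (x axes), for cells within both limits, with exact 95% counting intervals as bars and members in red. Slc12a2, Dsc3, Tgfb2 and Crabp1 are highest at 7 or more, and Crabp1 is level between 1 and 2. Isl1 and Slc4a4 level off from 5 on, and Tfap2b and Robo2 are highest at 0.

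The embryos could be divided only by sex-linked transcripts. Cells with Xist and no UMI of 4 Y-linked genes, and cells with the reverse, gave 1009 and 1300 members, 27.7% and 26.7% of such cells. Isl1 was at 177 CPM in members and 86.7 CPM in other cells in the first group, and at 180 and 77.3 CPM in the second. For Slc4a4 the levels were 76.4 and 41.7 CPM, and 79.5 and 37.4 CPM. Dmrt2 was at 18.3 and 9.93 CPM, and 19.6 and 9.58 CPM. The difference in Rtl3 was in the second group, at 16.9 CPM (14.5 to 19.6) and 9.54 CPM (8.36 to 10.9), while in the first it was at 5.44 CPM (3.88 to 7.40) and 5.63 CPM (4.57 to 6.87).

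At E9.5 the same counts picked a different population. The rule was met by 1925 of 12744 kept cells (15.1%), and Unc5c supplied 96.6% of their 5522 UMIs of the 3 genes, Runx1 2.92% and Pthlh 0.453%. Only 503 of them had at least 2 Epcam UMIs, out of 3577 such cells, and Prrx1 was at 268 CPM (262 to 273) over all 1925. In the 3577 Epcam cells, Runx1 was at 3.27 CPM (2.79 to 3.82), Pthlh at 0.0813 CPM (0.0222 to 0.208) from 4 UMIs and Unc5c at 42.4 CPM (40.6 to 44.2). Rxfp1 (0.0610 CPM), Cntn2 (0.407 CPM) and Cxcl14 (1.53 CPM) were also near 0 there. Isl1 was at 77.3 CPM in the Epcam cells, with a UMI in 54.0% of them, and at 22.6 CPM and 14.1% in cells without Epcam. Tlx1 was at 59.0 and 26.8 CPM, Slc4a4 at 20.7 and 10.9 CPM and Wnt5a at 57.7 and 63.1 CPM. The mesenchymal genes Twist1 and Prrx1 were at 78.6 and 37.2 CPM in the Epcam cells and at 595 and 248 CPM in cells without Epcam, so Isl1, Tlx1 and Slc4a4 were on the side of the Epcam cells and the mesenchymal genes on the other. Crabp1 was at 320 CPM in the Epcam cells and 1257 CPM in cells without Epcam. The stages differ in sorting, depth and library, so a difference in level between them cannot be told apart from these. Between the libraries 44 barcodes of kept cells were shared, and 10 members carried a barcode that was also in the E9.5 library.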

How the data were processed

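The deposited files held raw UMI counts per gene and cell for 1 library per stage, E12.0 (78911671 counts, 11663 barcodes) and E9.5 (208540526 counts, 14293 barcodes). The submitters' processing notes name Cell Ranger 2.0.0 and mm10/GRCm38, whereas the file headers give software versions 3.1.0 and 6.1.2. Cells with 200 to 5500 genes and at most 10% mitochondrial UMIs were kept. Members, comparison cells and gene lists were chosen with earlier results of these data known. The named genes are the rule genes, the 15 largest and 10 smallest folds of each comparison, and examples from the lists, which were chosen by size of fold. Gjb2 and Gjb6 cells had at least 3 UMIs of these genes, and Wnt9b, Otx1 and Lmo1 cells at least 2 of those, within the limits and outside the members. Counts were summed over cells and divided by the group's total to give CPM, which corrects for depth but not for transcript length, so levels are compared within a gene. Some genes are not reported here, and the class D rule was set to Irx1 alone after the data were seen. Intervals are exact Poisson, conditional binomial (ratios) or Clopper-Pearson (shares). Thinning drew 4100 UMIs per cell without replacement (seed 1), leaving out 1024 shallower kept cells, of which 161 were members. Scrublet (scanpy 1.11.5, score threshold 0.18) called doublets, which stayed in. On simulated counts for 2000 genes of the comparison of members with all other kept cells, 99.0% of 200 genes changed 1.5-fold were recovered, and 97.5% for the Cxcl14 cells, with 0 of the unchanged genes called. The simulated cells of a group differed in depth and counting error only. This checks the calculation, and does not give the reliability of calls in real cells of mixed regions. No test between samples was possible. Alternatives covered filters, doublets, depth, the rule and the criteria. Python 3.11.15, numpy 2.4.6, scipy 1.17.1 and pandas 2.3.3 were used.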

Additional observations from a re-analysis of the deposited data

How the results depend on the processing

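The share of members among kept cells, 26.6%, was 25.8% without called doublets, 34.7% with at most 5% mitochondrial UMIs, 17.9% in thinned cells, 16.2% with a rule sum of at least 3, 14.1% with UMIs of at least 2 of the 3 genes, 29.3% without the limits, 27.7% in cells with Xist and no Y-linked UMI, and 1.43%, 4.48% and 20.6% with at least 2 UMIs of Pthlh, Unc5c or Runx1 alone. Genes higher and lower than in all other cells, 118 and 83, became 304 and 304 with Pthlh alone, 251 and 147 with Unc5c alone, 4 and 7 at a fold of 2, 246 and 212 with no minimum share of cells, and 83 and 38 with the others weighted by zone class. The lower genes became 52 with at most 5% mitochondrial UMIs and 41 within the same limits. Of the 118 and 83, 66 and 40 were shared with the calls in cells of at most 5% mitochondrial UMIs, 70 and 50 with those in thinned cells and 84 and 39 with those within the same limits. Against the Cxcl14 cells, 399 and 296 became 665 and 536 with Pthlh alone, 84 and 54 at a fold of 2, and 921 and 596 with no minimum share. The higher genes were 617 with Unc5c alone, and the lower ones 180 with a UMI in at least 25% of cells and 197 in members with Cxcl14. The zone-weighted comparison and that within the same limits were chosen after seeing the data.

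Changes of sign were counted only for genes that met the criterion in the main comparison, and those of other genes were not. Of 4788 recomputed log2 folds (5 CPM added) of the 133 named genes outside the rule, 22 were such changes. With Pthlh alone these were, against all other cells, Barx1 (-3.15), Krt8 (-1.49), Foxe1 (-1.44), Tshz2 (-0.995), Crabp2 (-0.896), Meg3 (-0.325), Fam198b (-0.109), Etv5 (-0.092) and Epha7 (-0.021), and against the Cxcl14 cells Meis1 (-0.344) and Barx1 (-0.133). With Unc5c alone they were Axin2 (0.030) and Ephb1 (-0.028). With at most 5% mitochondrial UMIs, against the Cxcl14 cells, they were Crabp1 (-0.354), Wnt5a (-0.249), Dlx1 (-0.098), Bambi (-0.061) and Ephb1 (-0.051). Notch1 was at 0.124 and 0.082 without the limits, and at 0.018 within the same limits. Otx1 was at 0.292 in members with Cxcl14. The cause of these changes was not tested. With 1 library per stage, the spread between embryos is unknown, and genes in few cells could not be compared at this depth. No paired analysis was possible because each stage has 1 library.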

Other observations

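Single genes of other groups differed between members and the other cells. Fos, Fosb and Atf3, immediate-early genes that respond within minutes to stimuli and to tissue handling, were at 229, 58.9 and 35.4 CPM in members, 323, 91.4 and 53.7 CPM in all other kept cells, and 459, 132 and 63.5 CPM in the Cxcl14 cells. Of 9 immediate-early and heat shock genes tested these 3 were lower than in all other cells and none was higher, and Egr1 stood at 105 against 92.0 CPM. Against other cells within the same limits on connexin and periderm genes the pattern turned, with Fosb still lower, Fos and Atf3 short of the criterion, and Egr1 and Junb higher. In the Notch pathway the ligand Jag1 was higher (64.7 against 44.4 CPM), though not with the other cells weighted by zone class, and the receptor Notch1 lower (51.0 against 85.0 CPM), of 5 genes tested. Notch1 is also a gene of the suprabasal layer, and without the limits on connexin and periderm genes it was higher in members than in the others by 0.12 on the log2 scale, with 5 CPM added.

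Keratins were divided. Krt8, of simple epithelium, was at 59.9 CPM in members, 43.7 CPM in all other cells and 8.21 CPM in the Cxcl14 cells, whereas Krt5 and Krt7 (18.7 against 31.2 CPM) were lower. Neither Krt5 nor Krt7 was past the criterion within the same limits, Krt7 for too few cells with a UMI, and neither Krt8 nor Krt5 with the other cells weighted by zone class. Of 14 tested genes of basement membrane and integrins, Frem2, which encodes an extracellular matrix protein at epithelial bases, was higher (282 against 211 CPM) and none was lower, but Frem2 was short of the criterion within the same limits. Among diastema markers Prss23 was higher (136 against 86.5 CPM) and Timp3 lower (80.1 against 114 CPM). Barx2 and Sox9, genes of the salivary and posterior-lateral epithelium, were at 113 and 62.8 CPM in members, 88.5 and 51.0 CPM in all other cells, and 25.9 and 16.3 CPM in the Cxcl14 cells.

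Cells with at least 2 UMIs of Wnt9b, Otx1 and Lmo1 overlapped with the members. Of 3447 such cells 959 (27.8%) were members, which was 31.7% of the members. This overlap was near the share of members among all kept cells, 26.6%. Among the 2488 that were not, Wnt5a was at 147 CPM and Crabp1 at 70.3 CPM, close to the 139 and 74.5 CPM of members, while Isl1 was at 75.8 CPM.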
